A study of Mus musculus with 8 samples.

Results

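The genes described here are the machinery and cargo receptors of autophagy, 37 genes chosen by name from a deposited table of 54532 genes, measured in every one of the 8 RNA sequencing libraries. The cells were bone marrow-derived macrophages (BMDM) of the mouse, grown in culture from marrow, and the libraries form 4 groups of 2. WT_con and KO_con are wild-type (WT) and ELF1 knockout (KO) cells without lipopolysaccharide (LPS). WT_M1 and KO_M1 are the same genotypes in the arm labelled M1, taken here to be 6 h of LPS, since the design names no other stimulus. LPS is a bacterial glycolipid that acts on macrophages through TLR4, and ELF1 belongs to the ETS transcription factors. No strain, age, sex, KO allele or LPS dose is given, nor is it said whether the libraries of a group come from separate animals, so p-values cover only the variation among these libraries, which may be technical.

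Autophagy encloses cytoplasm, damaged organelles or bacteria in a double membrane that then fuses with the lysosome. The ULK1 kinase complex starts the membrane, a class III PI3 kinase marks it with the lipid PI3P, and 2 conjugation reactions attach proteins of the ATG8 family to it. Receptors such as p62 bind ubiquitin-tagged cargo on the one side and ATG8 proteins on the other, and in macrophages they take up bacteria that escape into the cytosol. The factors TFEB, TFE3 and MITF switch on genes of autophagy and the lysosome. Levels of mRNA do not measure the flux of cargo through this route.

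Reads rebuilt from the deposited values summed to 17297543 to 18058974 per library without LPS and to 15753259 to 17133646 with it. The genes named here had 29 to 21147 of these reads each, with Atg10 at the low end and Sqstm1 at the high end. Elf1 itself was still read in every library, with 1618 to 2515 reads. It stood at 12.4 and 14.1 FPKM (reads scaled for gene length and for a factor of each library) in WT_con, 16.9 and 16.1 in KO_con, 21.9 and 22.4 in WT_M1 and 16.5 and 17.9 in KO_M1. A total per gene cannot show a missing exon, and it does not check the label, so these libraries are called KO-labelled. All 8 macrophage markers were present, at a summed 7660 to 10500 FPKM. Summed neutrophil markers were 2.24 to 4.05 FPKM without LPS and 9.62 to 14.4 with it, and 3 of 8 reached 1 FPKM. Summed fibroblast markers, of which 2 of 5 reached 1 FPKM, were 2.92 to 11.2 in WT_con, 0.546 to 2.83 in KO_con, 2.35 to 9.08 in WT_M1 and 0.673 to 1.06 in KO_M1. B cell, T and NK cell, erythroid, dendritic cell and mast cell markers each summed to at most 1.48, and Cd3d, Hbb-bs, Hbb-bt and Tpsb2 were at 0 throughout. The part of these other cells in the results below was not tested, and in bulk RNA fewer cells of a type and less RNA per cell cannot be told apart.

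All 37 genes passed the filter of at least 1 FPKM in at least 2 libraries, and 36 of them reached 1 FPKM in all 8. The exception, Atg16l2, passed through the libraries without LPS, where it was higher. By mean level 28 of the 37 stood above the 50th percentile of the 11887 genes tested, with a median percentile of 63.3. Sqstm1 (99.1), Gabarap (97.7) and Tax1bp1 (93.1), a receptor, an ATG8 protein and another receptor, were the 3 highest.

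LPS changed most of these genes in both genotypes, in both directions. In WT 13 rose, 19 fell and 5 did not pass (limma, Benjamini-Hochberg adjusted p under 0.05 over all genes), where 71.5% of all genes tested changed, 37.7% up and 33.9% down. In KO-labelled cells 12 rose, 19 fell and 6 did not pass, where 65.9% of all genes changed, 34.7% up and 31.2% down. Between the 2 genotypes, which share no library, 11 genes rose in both, the same 19 fell in both, 2 passed as higher in WT alone, 1 in KO-labelled cells alone and 4 in neither. The median change of the 37 was -0.27 in WT and -0.22 in KO-labelled cells, beside 0.04 and 0.02 for all genes. Every change here and below is on log2(FPKM + 1), with its SE.

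The direction of some of the rises depended on how libraries were scaled. Scaling to TPM moved the median of all genes to -0.51 in WT and -0.42 in KO-labelled cells, scaling to total reads to -0.46 and -0.36, and quantile normalization to -0.13 and -0.11. The split then became 8 higher and 27 lower in WT under TPM and under total reads, and 9 and 23 under quantile normalization. Of all genes 21.4% were then higher and 57.6% lower under TPM, 21.1% and 58.7% under total reads, and 29.7% and 41.3% under quantile normalization. In KO-labelled cells it was 8 and 25 under TPM and under total reads, and 11 and 22 under quantile normalization, beside 20.6% and 54.7%, 20.8% and 55.1%, and 27.9% and 38.5% of all genes. All 19 falls passed in both genotypes under each of the 3 scalings, and so did 7 of the 13 rises in WT and 8 of the 12 in KO-labelled cells. The rises in WT that did not were Rb1cc1, Becn1, Atg4a, Gabarap, Sqstm1 and Tfe3. By limma voom on rebuilt reads, which sets its own library factors, 12 were higher and 20 lower in each genotype. Higher genes were then 37.5% of the calls among the 37 in each, beside 48% among all genes in WT and 48.9% in KO-labelled cells. By voom Rb1cc1, Becn1, Atg4a, Sqstm1 and Tfe3 passed as higher in WT, and Gabarap (0.12) did not pass.

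**Figure D1:**
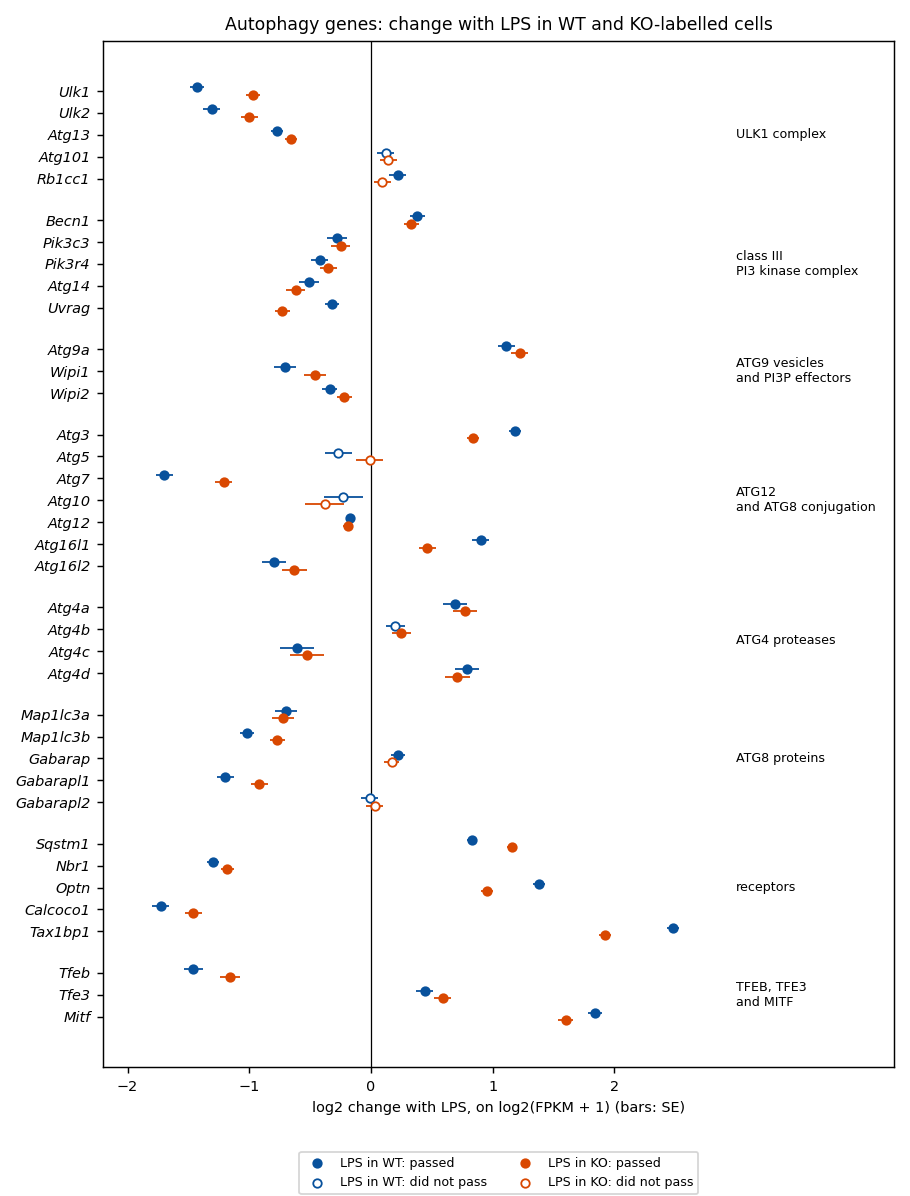
Log2 change with LPS (x axis, on log2(FPKM + 1), bars are SE) of each of the 37 genes, grouped by role, in WT (blue) and KO-labelled cells (orange), with filled points for changes that passed. Tax1bp1 (2.48) and Mitf (1.84) have the largest rises in WT and Calcoco1 (-1.73) and Atg7 (-1.70) the largest falls.

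Promoter sequences are shown for 4 genes whose LPS change differed between WT and KO-labelled cells (values below): Tax1bp1 and Optn, which are receptors, Atg3, a conjugation enzyme, and Ulk1, a kinase. They are RefSeq sequences on GRCm38.p6, the assembly behind mm10, from 250 bases before to 50 after the annotated start, which lay 1, 67, 43 and 15 bases from the start of the gene in the deposited table. They span chr6:52713479-52713778 (plus strand), chr2:5064068-5064367 (minus strand), chr16:45158579-45158878 (plus strand) and chr5:110810032-110810331 (minus strand). Capitals mark CGGAAG, the core read by ETS factors, or its reverse complement CTTCCG, and CACGTG, the E-box core read by TFEB, TFE3 and MITF.
Tax1bp1: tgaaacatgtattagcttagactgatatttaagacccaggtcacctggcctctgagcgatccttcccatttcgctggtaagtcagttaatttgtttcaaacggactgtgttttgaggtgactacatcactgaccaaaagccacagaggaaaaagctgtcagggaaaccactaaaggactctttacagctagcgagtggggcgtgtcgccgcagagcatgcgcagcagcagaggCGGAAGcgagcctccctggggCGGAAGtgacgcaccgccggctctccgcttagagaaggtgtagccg
Optn: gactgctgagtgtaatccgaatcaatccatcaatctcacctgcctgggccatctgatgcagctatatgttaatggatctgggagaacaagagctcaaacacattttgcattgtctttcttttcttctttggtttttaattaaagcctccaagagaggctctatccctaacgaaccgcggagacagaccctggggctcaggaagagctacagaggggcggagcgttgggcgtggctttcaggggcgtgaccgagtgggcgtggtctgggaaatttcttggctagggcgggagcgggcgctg
Atg3: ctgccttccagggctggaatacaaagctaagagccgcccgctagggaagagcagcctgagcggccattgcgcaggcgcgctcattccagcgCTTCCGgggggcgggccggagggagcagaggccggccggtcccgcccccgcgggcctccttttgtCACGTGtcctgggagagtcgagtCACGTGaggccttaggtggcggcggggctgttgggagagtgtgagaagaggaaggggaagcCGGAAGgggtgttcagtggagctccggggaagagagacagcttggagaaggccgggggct
Ulk1: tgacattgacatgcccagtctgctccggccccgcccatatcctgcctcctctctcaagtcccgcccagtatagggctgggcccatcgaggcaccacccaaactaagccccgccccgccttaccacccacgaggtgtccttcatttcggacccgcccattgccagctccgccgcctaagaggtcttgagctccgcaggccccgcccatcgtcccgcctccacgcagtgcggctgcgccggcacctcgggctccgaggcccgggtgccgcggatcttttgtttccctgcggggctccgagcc
The Tax1bp1 window held CGGAAG at 2 places, and the Atg3 window held CGGAAG at 2 and CACGTG at 2. No searched motif was in the Optn and Ulk1 windows. The table had an entry for 31 of the 37 genes, with 40 promoters of the 32851 in all, and both strands were searched. CGGAAG, a motif picked after values were seen, was in 13 of the 40, for 12 genes, and in 16.9% of all promoters. The longer ETS site CCGGAAGT, which contains it, was found for Atg101 and Gabarapl2 and in 3.89% of all. CACGTG was found for Atg14, Atg3, Atg5 and Atg7 and in 7.15% of all. The CLEAR element, the longer palindrome through which TFEB acts and which contains CACGTG, was found for none of the genes and in 0.326% of all. The core of the interferon-stimulated response element, also picked after values were seen, was found for Nbr1 and in 3.44% of all. A match is a string of letters and not a measured site.

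Of the 5 genes of the ULK1 complex, 3 fell with LPS in each genotype. Of all genes, 33.9% fell in WT and 31.2% in KO-labelled cells. Ulk1, the kinase that starts autophagosome formation (ENSMUSG00000029512, mm10 chr5:110784488-110810097), stood at 13.5 and 12.6 FPKM in WT_con, 12.2 and 12.7 in KO_con, 4.14 and 4.26 in WT_M1 and 5.87 in both KO_M1 libraries. Every LPS library lay below every library without LPS, and WT_M1 lay below KO_M1. Its change was -1.43 ± 0.06 in WT (limma adjusted p = 5.89e-07) and -0.97 ± 0.06 in KO-labelled cells (5.64e-06). Ulk2, its paralog, stood at 12.1 and 11.1 in WT_con, 10.6 and 10.7 in KO_con, 4.17 and 3.95 in WT_M1 and 4.51 and 5.18 in KO_M1. It fell by 1.31 ± 0.07 in WT and by 1.00 ± 0.07 in KO-labelled cells. Atg13, the adaptor that binds the kinase and the most abundant of the 5 by the mean of all libraries, stood at 17.0 and 15.8 in WT_con, 14.5 and 15.2 in KO_con, 9.12 and 9.37 in WT_M1 and 8.97 and 9.03 in KO_M1. The LPS libraries of Ulk2 and Atg13 all lay below the others, and Atg13 changed by -0.77 ± 0.05 and -0.66 ± 0.05. Atg101, the partner of ATG13, was at 8.49 to 10.5 FPKM in all libraries and did not pass (0.12 ± 0.07 and 0.14 ± 0.07), although it turned to -0.46 and -0.31 under TPM and -0.45 and -0.29 under total reads, where it passed as lower. Rb1cc1, the scaffold FIP200, rose by 0.22 ± 0.07 in WT (adjusted p = 0.0217) and was at 0.09 ± 0.07 in KO-labelled cells, but under TPM and total reads it passed as lower, at -0.30 and -0.28 in WT and -0.34 and -0.30 in KO-labelled cells. Without WT_con 1, WT_M1 1 or WT_M1 2 the Rb1cc1 rise did not pass (adjusted p = 0.0575 to 0.104).

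In the class III PI3 kinase complex 4 of 5 genes fell in each genotype, where 33.9% of all genes fell in WT and 31.2% in KO-labelled cells. Becn1, the other of the 5, rose. Becn1, the scaffold Beclin 1 and the most abundant of them by the mean of all libraries, was at 9.26 and 8.73 FPKM in WT_con, 8.33 and 8.90 in KO_con, 12.0 in both WT_M1 libraries and 11.3 and 10.8 in KO_M1. Its libraries with and without LPS did not overlap. The change was 0.38 ± 0.06 in WT and 0.33 ± 0.06 in KO-labelled cells, and it turned to -0.19 and -0.11 under TPM and to -0.20 and -0.11 under total reads. Under both, Becn1 passed as lower in WT and did not pass in KO-labelled cells. Under quantile normalization it was at 0.11 and 0.12 and did not pass. By voom it passed as higher in both, at 0.31 and 0.30. Atg14, the subunit that directs the kinase to autophagy, stood at 4.94 and 4.67 in WT_con, 4.51 and 4.87 in KO_con, 3.10 and 3.05 in WT_M1 and 2.92 and 2.51 in KO_M1 (-0.51 ± 0.08 in WT and -0.62 ± 0.08 in KO-labelled cells). Uvrag, the subunit that takes the place of ATG14 in the endosomal form (ENSMUSG00000035354, chr7:98885021-99141141), stood at 9.91 and 9.78 in WT_con, 8.39 and 9.08 in KO_con, 7.79 and 7.62 in WT_M1 and 4.82 and 4.94 in KO_M1. All LPS libraries were lower, and KO_M1 was the lowest group. Uvrag fell by 0.32 ± 0.06 in WT and by 0.73 ± 0.06 in KO-labelled cells. Pik3r4, the regulatory subunit VPS15, changed by -0.42 ± 0.07 and -0.35 ± 0.07. Pik3c3, the catalytic subunit VPS34, changed by -0.28 ± 0.08 in WT and -0.25 ± 0.08 in KO-labelled cells. The Pik3c3 calls ended without WT_con 2 or WT_M1 1 in WT (adjusted p = 0.0832 to 0.0966) and without KO_con 1, KO_con 2 or KO_M1 2 in KO-labelled cells (0.0875 to 0.146), where the value was -0.16 without KO_M1 2.

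Atg9a, the scramblase of the vesicles that seed the membrane, rose in both genotypes. It stood at 6.21 and 5.36 FPKM in WT_con, 5.63 and 5.82 in KO_con, 13.3 and 13.9 in WT_M1 and 15.0 and 14.4 in KO_M1. The LPS libraries lay above all others by more than the spread within any group. The change was 1.11 ± 0.07 in WT and 1.22 ± 0.07 in KO-labelled cells, and 0.55 to 1.07 over both genotypes and the 3 scalings, always passing. The genes of PI3P-binding proteins changed in the other direction, Wipi1 by -0.71 ± 0.09 and -0.46 ± 0.09, and Wipi2, which recruits ATG16L1, by -0.34 ± 0.06 and -0.22 ± 0.06. The Wipi2 fall in KO-labelled cells did not pass without KO_con 1, KO_con 2 or KO_M1 2 (adjusted p = 0.0642 to 0.0703).

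The conjugation genes moved in opposite directions, with the E2 enzyme Atg3 up and the E1 enzyme Atg7 down. Atg7, which activates both ATG12 and the ATG8 proteins (ENSMUSG00000030314, chr6:114643097-114860614), was at 14.1 and 13.4 FPKM in WT_con, 12.1 and 12.3 in KO_con, 3.31 and 3.74 in WT_M1 and 4.85 and 4.54 in KO_M1. Atg3, which passes ATG8 proteins to their lipid (ENSMUSG00000022663, chr16:45158785-45188538), was at 11.3 and 10.3 in WT_con, 11.3 and 11 in KO_con, 25.5 and 25.9 in WT_M1 and 20.7 and 20.8 in KO_M1. For both genes the LPS libraries were apart from the rest, and WT_M1 lay farther from the libraries without LPS than KO_M1 did. Atg7 changed by -1.70 ± 0.07 in WT and -1.21 ± 0.07 in KO-labelled cells. Atg3 changed by 1.18 ± 0.05 and 0.84 ± 0.05, and by 0.40 to 0.74 under the 3 scalings.

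Atg16l1, which places the conjugation machinery on the membrane (ENSMUSG00000026289, chr1:87755870-87792428), also rose. It stood at 3.83 and 3.56 FPKM in WT_con, 4.23 and 4.19 in KO_con, 7.58 and 7.93 in WT_M1 and 5.91 and 6.43 in KO_M1. WT_M1 was the highest group and the KO_M1 libraries lay between it and those without LPS. The change was 0.90 ± 0.07 in WT and 0.46 ± 0.07 in KO-labelled cells, and the latter was 0.07 and 0.06 under TPM and total reads, where it did not pass. Its paralog Atg16l2 fell from 1.59 to 1.98 FPKM without LPS to 0.528 to 0.924 with it (-0.80 ± 0.10 and -0.63 ± 0.10). It passed the filter only through the libraries without LPS, where it was higher, so the filter favoured this fall. It is among the falls counted above. The span of Atg16l2 overlaps that of Fchsd2, on the opposite strand, by 21372 bases, and the strand setting of the counts is not given.

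Atg12, the ubiquitin-like protein joined to ATG5 and the most abundant of this group by the mean of all libraries, stood at 23.4 and 23.9 FPKM in WT_con, 19.6 and 19.9 in KO_con, 20.7 and 21.2 in WT_M1 and 17.1 and 17.3 in KO_M1. Within each LPS condition the KO-labelled libraries were the lower ones. Its LPS change was -0.17 ± 0.04 in WT and -0.19 ± 0.04 in KO-labelled cells, and the WT fall did not pass without WT_M1 1 (adjusted p = 0.0567). Atg5 stood at 15.0 and 19.0 in WT_con, 18.9 and 19.3 in KO_con, 14.4 and 13.3 in WT_M1 and 20.1 and 17.8 in KO_M1. The WT_con libraries differed from each other, and the LPS change in WT (-0.27 ± 0.11, adjusted p = 0.0604) passed once WT_con 1 was left out (0.00628). In KO-labelled cells it was -0.01 ± 0.11. Under TPM, total reads and quantile normalization Atg5 passed as lower in both genotypes, at -0.88, -0.86 and -0.66 in WT and -0.48, -0.47 and -0.39 in KO-labelled cells. Atg10, the E2 enzyme of ATG12, was at 1.10 to 2.44 FPKM, with 29 to 92 reads, and did not pass in either genotype (-0.23 ± 0.16 and -0.38 ± 0.16), and without KO_M1 1 the latter passed (adjusted p = 0.0147). It passed as lower under TPM (-0.82 and -0.93) and total reads (-0.64 and -0.70), and not under quantile normalization (-0.12 and -0.29).

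The 4 ATG4 proteases, which trim ATG8 proteins and remove them from lipid, split. Atg4d was at 2.57 and 2.15 FPKM in WT_con, 1.88 and 2.14 in KO_con, 4.54 and 5.07 in WT_M1 and 3.78 and 4.10 in KO_M1 (0.79 ± 0.10 in WT and 0.71 ± 0.10 in KO-labelled cells). Atg4a was at 3.46 and 4.20, 3.58 and 3.84, 6.52 and 7.05, and 6.50 and 7.65 in the same order (0.69 ± 0.10 and 0.77 ± 0.10), but in WT it was 0.21 and 0.17 under TPM and total reads and did not pass. Atg4c, the most abundant by mean, was at 7.15 and 8.07, 7.05 and 7.42, 3.87 and 5.53, and 4.42 and 4.99. Both rising genes and the falling one had no overlap between libraries with and without LPS. Atg4c fell by 0.61 ± 0.14 in WT, or by 0.40 without WT_M1 1, and by 0.53 ± 0.14 in KO-labelled cells, where it did not pass without KO_con 2 or KO_M1 1 (adjusted p = 0.0628 to 0.0684). Atg4b was at 0.20 ± 0.08 in WT and 0.25 ± 0.08 in KO-labelled cells, where it passed (adjusted p = 0.0342), and it turned to -0.16 and -0.14 there under TPM and total reads, while in WT it passed as lower under both (-0.33 and -0.31). Without KO_con 1, KO_con 2 or KO_M1 2 Atg4b did not pass (0.0534 to 0.176). Atg4d shares 792 transcript bases with Kri1 on the opposite strand, which had 226 to 302 reads beside its own 303 to 475, so the level of Atg4d is uncertain.

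Of the 5 ATG8 genes, 3 fell in each genotype, while Gabarap, the most abundant, became a larger share of the family. Among all genes 33.9% fell in WT and 31.2% in KO-labelled cells. Gabarap was at 128 and 136 FPKM in WT_con, 127 and 126 in KO_con, 156 and 151 in WT_M1 and 151 and 134 in KO_M1. Map1lc3b, which encodes LC3B, was at 25.5 and 26.3, 25.5 and 24.5, 12.3 and 12.2, and 13.5 and 14.9 in that order. Gabarapl1 (ENSMUSG00000030161, chr6:129533160-129542346) was at 35.0 and 39.0, 41.9 and 41.3, 14.7 and 16.3, and 21.0 and 21.9. For Map1lc3b and Gabarapl1 the LPS libraries were all lower, and for Gabarap the KO_M1 and WT_con libraries overlapped. Gabarapl1 changed by -1.20 ± 0.07 in WT and -0.92 ± 0.07 in KO-labelled cells, Map1lc3b by -1.02 ± 0.06 and -0.77 ± 0.06, and Map1lc3a by -0.70 ± 0.09 and -0.72 ± 0.09. Gabarap was 0.22 ± 0.06 in WT (adjusted p = 0.0172) and 0.17 ± 0.06 in KO-labelled cells (0.0504), and it turned to -0.82 to -0.30 under the 3 scalings. Its WT call ended without WT_con 1 or WT_M1 1 (0.0843 to 0.0874). Gabarapl2 did not pass (-0.01 ± 0.07 and 0.03 ± 0.07), but passed as lower under each of the 3 scalings, at -0.60 to -0.22.

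Shares within the family do not depend on scaling to TPM or to total reads. Gabarap made up 56.5 to 59.1% of the summed FPKM of the 5 ATG8 genes without LPS and 69.4 to 75.8% with it. Map1lc3b went from 11 to 11.7% to 5.95 to 7.69%, and Gabarapl1 from 16.1 to 18.6% to 7.13 to 11.3%. The sum of the 2 LC3 genes was 41.9 to 45.3 FPKM without LPS and 20.8 to 26.1 with it. Unlike the shares, that sum depends on scaling.

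The 5 receptor genes held both the largest rise and the largest fall. Tax1bp1, which binds ubiquitin and ATG8 proteins and also restrains NF-kB signalling (ENSMUSG00000004535, chr6:52713729-52766780), was at 18.2 and 19.3 FPKM in WT_con, 17.4 and 17.0 in KO_con, 106 and 112 in WT_M1 and 67.6 and 68.1 in KO_M1. The WT_M1 libraries were the highest and those of KO_M1 next, with no overlap between any of these groups. The change was 2.48 ± 0.05 in WT (adjusted p = 2.28e-08) and 1.92 ± 0.05 in KO-labelled cells (9.19e-08), and 1.43 to 1.92 over both genotypes and the 3 scalings. Optn, the receptor optineurin (ENSMUSG00000026672, chr2:5020642-5064051), was at 9.30 and 9.36, 8.26 and 8.62, 25.2 and 26.8, and 17.1 and 17.5 in the same order. Its groups were ordered as those of Tax1bp1. Optn rose by 1.38 ± 0.05 in WT and 0.95 ± 0.05 in KO-labelled cells.

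Sqstm1, which encodes p62 (ENSMUSG00000015837, chr11:50199366-50210827), was the most abundant of the 37 genes. It was at 220.0 and 213 FPKM in WT_con, 184 and 189 in KO_con, 392 and 378 in WT_M1 and 424 and 410.0 in KO_M1. The KO-labelled libraries were the lower ones without LPS and the higher ones with it. The rise was 0.83 ± 0.04 in WT and 1.16 ± 0.04 in KO-labelled cells. It was 0.20 to 0.23 in WT under TPM and total reads and turned to -0.35 under quantile normalization, while in KO-labelled cells it was 0.21 to 0.68 under all 3.

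The other 2 receptors fell. Calcoco1 (ENSMUSG00000023055, chr15:102706777-102722178), a receptor of endoplasmic reticulum in human cells, was at 12.4 and 11.2 FPKM in WT_con, 12.7 and 12.8 in KO_con, 2.97 and 2.70 in WT_M1 and 3.78 and 4.22 in KO_M1. All LPS libraries were lower, WT_M1 the most. Calcoco1 changed by -1.73 ± 0.07 in WT and -1.46 ± 0.07 in KO-labelled cells, and Nbr1, which binds ubiquitin together with p62, by -1.30 ± 0.05 and -1.18 ± 0.05. The summed FPKM of the 5 receptors was 245 to 284 without LPS and 509 to 535 with it. This sum depends on how libraries were scaled, as does the rise of Sqstm1, which made up most of it. The share of Sqstm1 in that sum was 75.2 to 77.4% without LPS. In the WT_M1 libraries it was 71.5 to 73.2%, and in those of KO_M1 80.5 to 81.3%.

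Among the 3 transcription factors Mitf rose and Tfeb fell. Mitf (ENSMUSG00000035158, chr6:97807052-98021349) was at 10.0 and 10.5 FPKM in WT_con, 11.3 and 12.2 in KO_con, 40.3 and 38.5 in WT_M1 and 36.8 and 38.4 in KO_M1. Tfeb (ENSMUSG00000023990, chr17:47737030-47792419) was at 11.9 and 10.4, 10.0 and 10.1, 3.60 and 3.18, and 4.13 and 3.77 in that order. Libraries with and without LPS did not overlap for either gene. Mitf changed by 1.84 ± 0.06 in WT and 1.60 ± 0.06 in KO-labelled cells, and Tfeb by -1.46 ± 0.08 and -1.16 ± 0.08. Both calls were kept under all 3 scalings. Tfe3 rose by 0.44 ± 0.07 and 0.59 ± 0.07, but in WT turned to -0.16 to -0.05 under the 3 scalings, and in KO-labelled cells it was 0.14 under both TPM and total reads (adjusted p = 0.178 and 0.104) and passed under quantile normalization (0.23). Mitf went from 25.4 to 32.3% of the summed FPKM of the 3 genes to 57.3 to 60.4%, Tfeb from 26.8 to 30.0% to 4.95 to 6.45%, and Tfe3 from 40.9 to 44.7% to 34.2 to 37.1%. Total counts per gene do not tell the isoforms of Mitf apart.

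**Figure D2:**
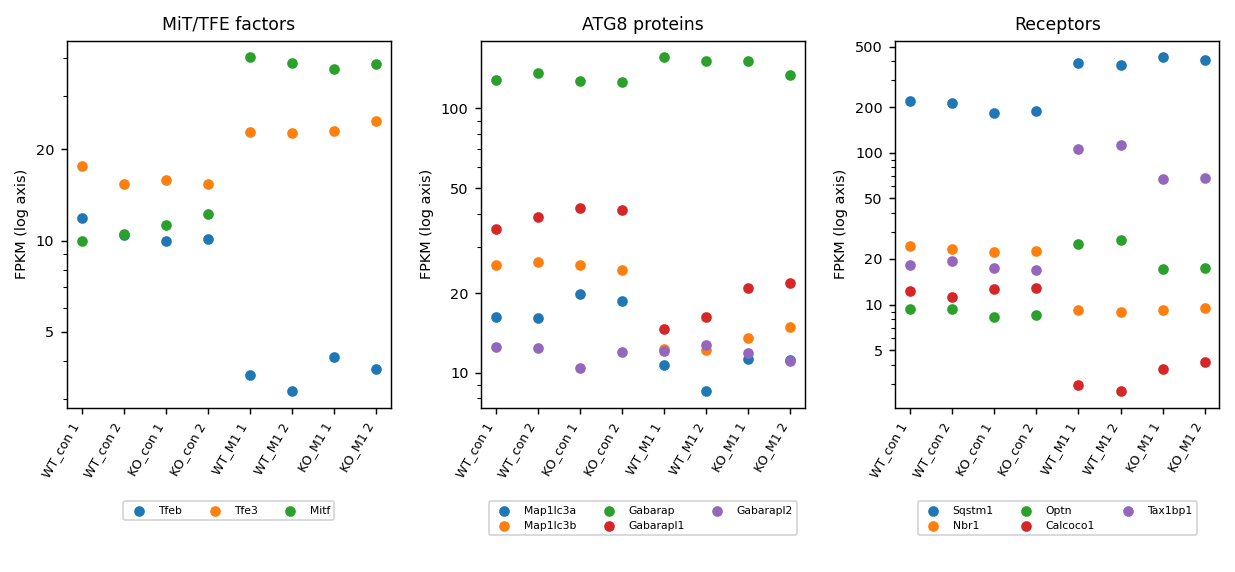
FPKM (y axis, logarithmic) of the transcription factors, the ATG8 genes and the receptors in each of the 8 libraries (x axis), 1 point a library. Mitf lies at 36.8 to 40.3 in the LPS libraries and Tfeb at 3.18 to 4.13, Gabarap stays the highest ATG8 gene, and Tax1bp1 lies at 106 and 112 in WT_M1.

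Without LPS few of these genes passed between KO-labelled and WT cells, where 5.64% of all genes passed. With 2 libraries a group, a gene that did not pass may still differ. Of the 37, 2 passed and both were lower in KO-labelled cells, where 3.92% of all genes were lower and 1.72% higher. The difference was -0.25 ± 0.04 for Atg12 (adjusted p = 0.0242) and -0.21 ± 0.04 for Sqstm1 (0.0362). In neither gene did the WT_con and KO_con libraries, whose values stand above, overlap. The same held for genes that did not pass, such as Wipi1 (0.05) and Wipi2 (0.06), so it adds no support. The Atg12 call ended under TPM (adjusted p = 0.0758) and without KO_con 1, KO_con 2, WT_con 1, WT_con 2, WT_M1 1 or WT_M1 2 (0.0511 to 0.168). The Sqstm1 call ended under each of the 3 scalings (0.0974 to 0.175), without any one library (0.0516 to 0.218) and with a replicate block (0.0658). Under TPM 0 of the 37 passed, and under total reads and quantile normalization 1 each, Atg12, while 2.23, 3.45 and 4.05% of all genes were lower and 2.97, 3.77 and 2.94% higher. The other 35 lay between -0.28 (Pik3c3) and 0.23 (Map1lc3a).

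With LPS 6 of the 37 were higher in KO-labelled cells, 6 were lower and 25 did not pass, where 10.8% of all genes were higher and 18.1% lower. Those higher were Gabarapl1 (0.45 ± 0.07, adjusted p = 0.00416), Atg5 (0.42 ± 0.11, 0.029), Ulk1 (0.40 ± 0.06, 0.0024), Calcoco1 (0.38 ± 0.07, 0.00982), Atg7 (0.33 ± 0.07, 0.0109) and Map1lc3b (0.20 ± 0.06, 0.04). Those lower were Tax1bp1 (-0.68 ± 0.05, 0.000211), Uvrag (-0.57 ± 0.06, 0.000637), Optn (-0.56 ± 0.05, 0.000481), Atg3 (-0.30 ± 0.05, 0.00759), Atg16l1 (-0.29 ± 0.07, 0.0169) and Atg12 (-0.27 ± 0.04, 0.00411). In each of the 12 the KO_M1 and WT_M1 libraries did not overlap, but with 2 libraries a group this adds no support. Genes that did not pass, such as Atg13 (-0.03) and Mitf (-0.06), had no overlap either. The median of the 37 was 0.02 and that of all genes -0.02.

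The balance of these calls moved with scaling. Under TPM 16 were higher and 3 lower, under total reads 17 and 3, and under quantile normalization 7 and 4, while 25.3, 27.5 and 13.3% of all genes were then higher and 9.04, 9.18 and 11.5% lower. Each of the 6 higher calls was kept under all 3, as were Tax1bp1, Uvrag and Optn among the lower. Atg3, at -0.13 to -0.09, and Atg12, at -0.13 to -0.06, passed under none of the 3, and Atg16l1 did not under TPM and total reads (adjusted p = 0.281 and 0.251). Leaving out libraries ended 5 calls. These were Atg5 without KO_con 1, KO_con 2, KO_M1 1, WT_M1 1 or WT_M1 2 (0.0541 to 0.138), Atg7 without KO_M1 1 or WT_M1 1 (0.0544 to 0.0575), Atg16l1 without KO_M1 1 or WT_M1 2 (0.082 to 0.0888), Calcoco1 without KO_M1 2 or WT_M1 2 (0.0515 to 0.06) and Map1lc3b without any library but KO_M1 1 (0.0509 to 0.158). Map1lc3b also did not pass with a replicate block (0.0612). Without 1 library 3 others passed, namely Pik3c3 without KO_M1 1 (0.0373), Wipi1 without WT_M1 1 (0.0292) and Map1lc3a without WT_M1 1 (0.0153).

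**Figure D3:**
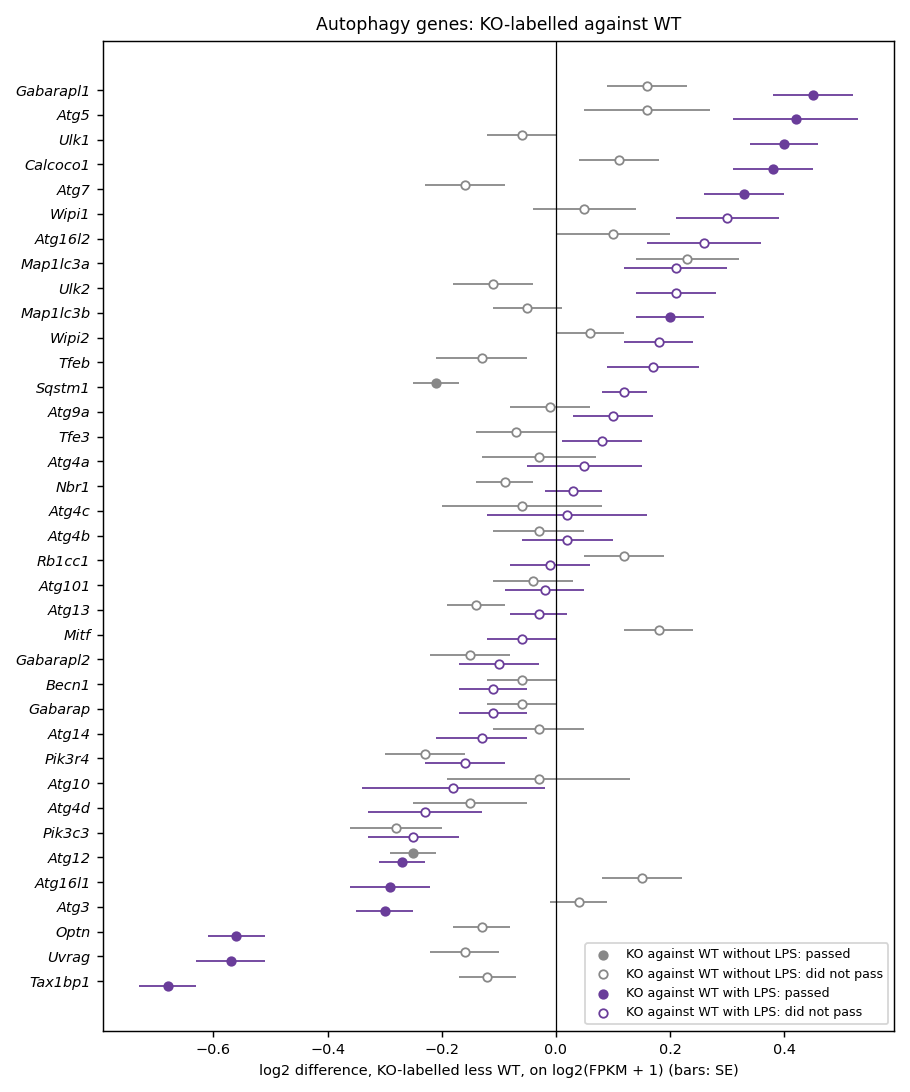
Log2 difference of KO-labelled less WT cells (x axis, on log2(FPKM + 1), bars are SE) without LPS (grey) and with LPS (purple) for the 37 genes, ordered by the difference with LPS, filled where it passed. With LPS the values run from -0.68 (Tax1bp1) to 0.45 (Gabarapl1), and without LPS 2 genes, Atg12 and Sqstm1, are filled.

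The LPS change itself differed between KO-labelled and WT cells for 8 of the 37 genes, 3 with a higher and 5 with a lower value in KO-labelled cells, where 5.64% and 10.3% of all genes did so. Tax1bp1 (-0.56 ± 0.07, adjusted p = 0.00368), Atg16l1 (-0.44 ± 0.09, 0.0217), Optn (-0.43 ± 0.07, 0.0107) and Atg3 (-0.34 ± 0.08, 0.0277) rose in both genotypes and rose less in KO-labelled cells. Atg7 (0.49 ± 0.09, 0.0165) and Ulk1 (0.46 ± 0.08, 0.0104) fell in both and fell less in KO-labelled cells. Uvrag (-0.41 ± 0.08, 0.0175) fell more in KO-labelled cells, and Sqstm1 (0.33 ± 0.06, 0.0131) rose more. The comparisons of KO-labelled with WT cells and this difference share the libraries with LPS, so they do not count as separate evidence.

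Under the 3 scalings Tax1bp1 (-0.43 to -0.31), Ulk1 (0.43 to 0.63), Atg7 (0.45 to 0.67) and Sqstm1 (0.46 to 0.55) kept their calls. The other 4 kept their direction and lost the call in at least 1 of them: Atg3 in all 3 (adjusted p = 0.117 to 0.157), Uvrag under TPM and total reads (0.0713 and 0.0635), Atg16l1 under the same (0.0754 and 0.0526) and Optn under quantile normalization (0.0675). Over all 37 genes the split was 5 higher and 2 lower under TPM, 7 and 2 under total reads, and 3 and 3 under quantile normalization, beside 7.97, 10.9 and 6.54% of all genes higher and 5.63, 6.16 and 6.07% lower. Tax1bp1 passed without each library in turn. Ulk1 did not pass without KO_con 1 (0.0556), Optn without KO_con 2 (0.0527) and Sqstm1 without KO_con 1 or WT_M1 2 (0.061 to 0.0651). Atg7 did not without KO_con 1, KO_con 2, KO_M1 1 or WT_con 1 (0.0533 to 0.071), and Uvrag without KO_con 2, KO_M1 1, WT_M1 1 or WT_M1 2 (0.0534 to 0.0743). Atg3 did not without KO_con 1, KO_con 2, KO_M1 1, KO_M1 2, WT_M1 1 or WT_M1 2 (0.0658 to 0.107), and Atg16l1 without KO_con 1, KO_con 2, KO_M1 1, WT_con 2, WT_M1 1 or WT_M1 2 (0.0515 to 0.084). Uvrag shares a repeat of 344 to 345 bases, at 95.1 to 95.6% identity, with Klhl20, Mettl6 and Txndc16, so part of its reads is uncertain.

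**Figure D4:**
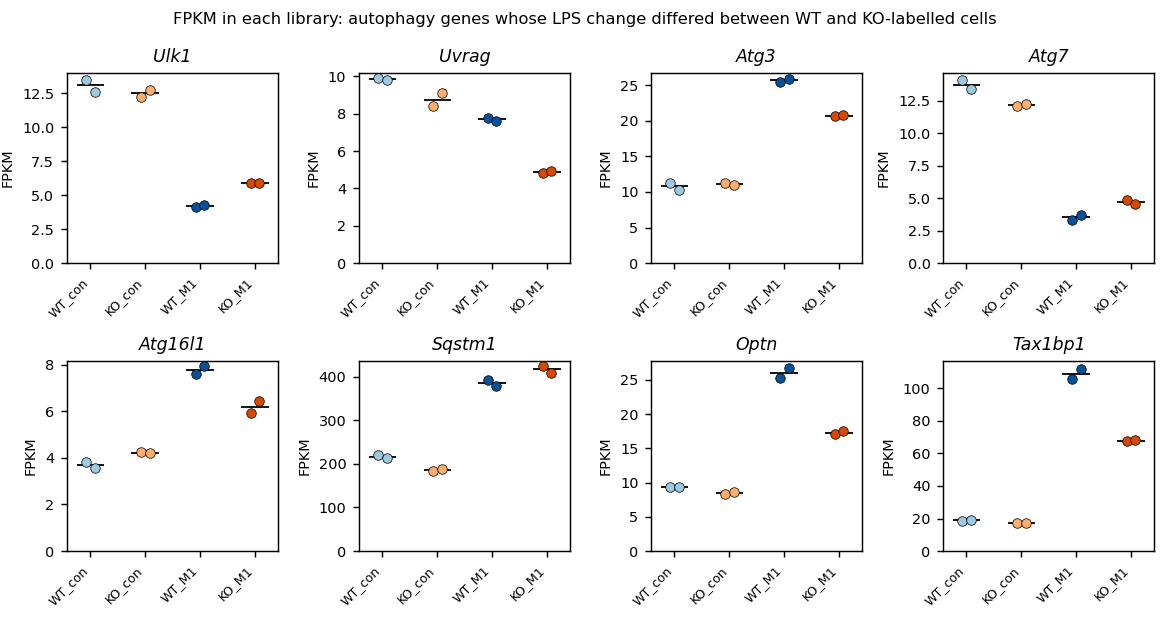
FPKM (y axis, from 0) in each library of the 8 genes whose LPS change differed between KO-labelled and WT cells, 1 point a library and a line at the mean of each group. Tax1bp1, Optn, Atg3 and Atg16l1 are highest in WT_M1, Ulk1 and Atg7 are lowest there, Uvrag is lowest in KO_M1 and Sqstm1 highest in KO_M1.

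Beyond these 37, 7 lists with 104 other genes of the pathway were counted, of which 97 were tested. With LPS 40 of the 97 rose and 40 fell in WT, and 38 and 41 in KO-labelled cells, where 37.7% of all genes rose and 33.9% fell in WT and 34.7% and 31.2% in KO-labelled cells. With scaling to TPM these became 21 and 64, and 17 and 62, beside 21.4% and 57.6%, and 20.6% and 54.7%, of all genes. Without LPS 1 of the 97 was higher and 4 were lower in KO-labelled than in WT cells, beside 1.72% and 3.92% of all genes. The split became 2 and 0 under TPM, 2 and 2 under total reads and 3 and 3 under quantile normalization. Shares of all genes were then 2.97% and 2.23%, 3.77% and 3.45%, and 2.94% and 4.05% in that order. With LPS 17 were higher and 27 lower, beside 10.8% and 18.1% of all genes. These became 37 and 11 under TPM, 41 and 11 under total reads and 25 and 11 under quantile normalization, beside 25.3% and 9.04%, 27.5% and 9.18%, and 13.3% and 11.5% of all genes. For the difference of LPS changes 8 were higher and 15 lower, beside 5.64% and 10.3%. These became 14 and 5 under TPM, 21 and 6 under total reads and 13 and 6 under quantile normalization. Shares of all genes were here 7.97% and 5.63%, 10.9% and 6.16%, and 6.54% and 6.07%. The counts of each list below are to be read against these shares of all genes, and nothing particular to a list is drawn from them.

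Upstream of the ULK1 complex, 26 of 28 genes of nutrient sensing were tested, and with LPS 7 rose and 13 fell in WT and 7 and 15 in KO-labelled cells (2 and 19, and 2 and 20, under TPM). Sesn1, a sestrin that restrains mTORC1, changed by -3.14 ± 0.06 in WT and -2.83 ± 0.06 in KO-labelled cells, and the Rag GTPase Rragd by -2.42 ± 0.07 and -1.90 ± 0.07. Ddit4, which encodes the mTORC1 inhibitor REDD1, rose by 1.87 ± 0.26 and 2.79 ± 0.26. With LPS 5 were higher and 6 lower in KO-labelled cells (11 and 2 under TPM), among them Rragd (0.52 ± 0.07) and its paralog Rragc (-0.60 ± 0.05), both kept under the 3 scalings. Ddit4 was higher too (1.03 ± 0.26, adjusted p = 0.0273), a call that ended without any of the 4 LPS libraries. Without LPS Rraga was the 1 gene to pass (0.26 ± 0.04), and it did not without KO_con 1, KO_con 2 or WT_con 1.

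Among 10 tested of 12 regulators of the Beclin 1 complex, 6 rose and 3 fell in WT and 4 and 2 in KO-labelled cells (5 and 4, and 2 and 5, under TPM). Irgm1, an interferon-induced GTPase of macrophages, rose by 4.33 ± 0.06 and 3.78 ± 0.06 from a mean of 5.16 FPKM in WT_con and 4.20 in KO_con to 122 in WT_M1 and 70.5 in KO_M1. Its difference between KO-labelled and WT cells with LPS was -0.79 ± 0.06 and was kept under the 3 scalings. The kinase Dapk1 changed by -1.64 ± 0.07 and -1.24 ± 0.07, and Rubcn, an inhibitor of the UVRAG form of the complex, by -0.88 ± 0.10 and -0.86 ± 0.10. With LPS 2 of the list were higher and 5 lower in KO-labelled cells.

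Of 10 genes of lipid transfer and the membrane scaffold, 2 rose and 5 fell in WT and 3 and 5 in KO-labelled cells (1 and 9, and 0 and 8, under TPM). Tecpr1 changed by -2.50 ± 0.08 and -2.24 ± 0.08, and the lipid transfer gene Atg2a by -1.32 ± 0.11 in WT. Its paralog Atg2b was higher by 0.60 ± 0.08 in KO-labelled cells with LPS and Atg2a by 0.46 ± 0.11, of which that of Atg2a did not pass without KO_M1 2, WT_M1 1 or WT_M1 2. In all 3 were higher there and 0 lower by limma.

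Of 17 genes of fusion with the lysosome, 7 rose and 8 fell in each genotype, and under TPM 3 rose and 12 fell in WT and 2 and 11 in KO-labelled cells. The adaptor Plekhm1 changed by -1.52 ± 0.08 and -1.57 ± 0.08. The GTPase Arl8a rose by 0.97 ± 0.04 in WT, which did not pass under quantile normalization, and by 0.84 ± 0.04 in KO-labelled cells, while Arl8b fell by 0.90 ± 0.07 in WT. With LPS 0 were higher and 6 lower in KO-labelled cells, where 10.8% of all genes were higher and 18.1% lower, but 3 and 1 under TPM, where the shares of all genes were 25.3% and 9.04%. The lysosomal membrane gene Lamp2 was at -0.42 ± 0.07, a call that ended under total reads and quantile normalization.

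Among 14 tested of 17 mitophagy and other selective receptors, 7 rose and 6 fell in WT and 6 and 6 in KO-labelled cells (3 and 10, and 3 and 9, under TPM). The mitochondrial kinase gene Pink1 changed by -2.32 ± 0.09 and -1.99 ± 0.09 and the endoplasmic reticulum receptor Retreg1 by -2.28 ± 0.06 and -1.80 ± 0.06. The mitochondrial receptor Bnip3 rose by 2.19 ± 0.07 and 2.50 ± 0.07. Trim21, an antibody receptor and ubiquitin ligase, rose by 3.83 ± 0.06 and 2.84 ± 0.06, and its LPS change was lower in KO-labelled cells (-1.0 ± 0.09). With LPS 3 were higher and 4 lower in KO-labelled cells (7 and 2 under TPM). Bnip3 (0.61 ± 0.07) and Bnip3l (0.49 ± 0.08) were higher, and Trim21 (-0.86 ± 0.06) and the galectin Lgals8 (-0.47 ± 0.05) lower, in each case also under the 3 scalings.

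The 10 genes around the receptor kinases and the p62, KEAP1 and NRF2 branch gave 7 that rose and 1 that fell in WT, beside 37.7% and 33.9% of all genes, and 7 and 0 in KO-labelled cells by limma, beside 34.7% and 31.2%. Under TPM these were 6 and 3, and 6 and 2, beside 21.4% and 57.6%, and 20.6% and 54.7%, of all genes. Tnip1, a ubiquitin-binding inhibitor of NF-kB, rose by 3.28 ± 0.05 and 3.45 ± 0.05, and the kinase gene Ikbke by 2.58 ± 0.05 and 2.84 ± 0.05. Without LPS 0 were higher and 3 lower in KO-labelled cells, beside 1.72% and 3.92% of all genes. The 3 lower became 0 under TPM, 1 under total reads and 3 under quantile normalization. With LPS 3 were higher and 2 lower in KO-labelled cells (5 and 1 under TPM). Gclm and Hmox1, both NRF2 targets, were higher by 0.92 ± 0.08 and 0.68 ± 0.05, and Keap1, which retains NRF2, was at -0.40 ± 0.05, each kept under the 3 scalings. Tbk1, the kinase of optineurin and p62, was at -0.37 ± 0.05 and passed under none of them. The LPS change of Gclm (0.70 ± 0.11) and of Hmox1 (0.57 ± 0.08) was higher in KO-labelled cells, also under the 3 scalings.

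Of 11 genes that control TFEB, TFE3 and MITF, 5 rose and 4 fell in WT and 5 and 5 in KO-labelled cells (2 and 7 in each under TPM). The 14-3-3 gene Ywhaz, whose family holds TFEB in the cytosol, rose by 1.51 ± 0.05 and 1.15 ± 0.05, and Ywhag by 1.21 ± 0.04 and 1.42 ± 0.04. Foxo3, a transcription factor, changed by -1.83 ± 0.06 and -1.21 ± 0.06 and the lysosomal calcium channel Mcoln1 by -0.85 ± 0.06 and -0.84 ± 0.06. With LPS 1 was higher and 4 lower in KO-labelled cells (4 and 1 under TPM), with Foxo3 at 0.39 ± 0.06 and Ywhaz at -0.58 ± 0.05. The LPS change of Foxo3 was higher (0.62 ± 0.09) and that of the calcineurin subunit Ppp3ca lower (-0.52 ± 0.08) in KO-labelled cells, both kept under the 3 scalings.

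**Figure D5:**
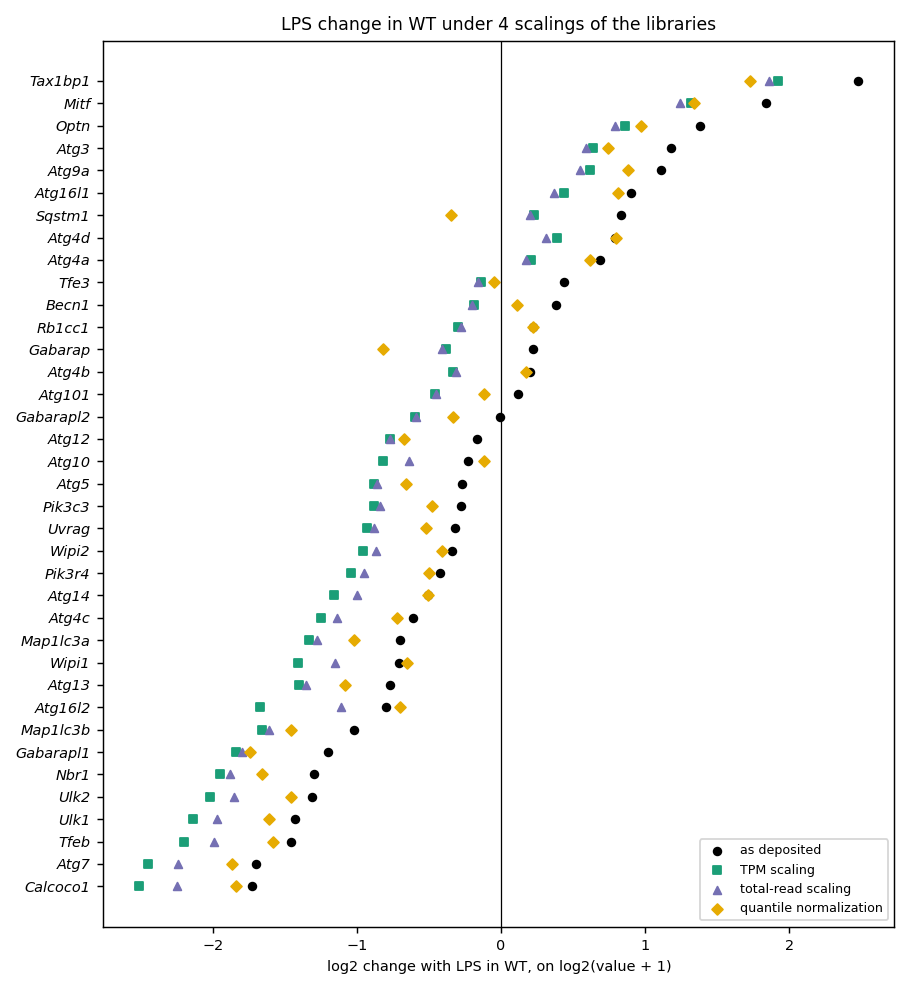
Log2 change with LPS in WT (x axis, on log2(value + 1)) of the 37 genes as deposited and after scaling to TPM, to total reads and by quantile normalization. The 19 genes that fell as deposited stay below 0 under all 4, Tax1bp1, Mitf and Optn stay above, and Becn1, Rb1cc1, Gabarap, Tfe3, Sqstm1, Atg4b and Atg101 cross 0 under at least 1 scaling.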

How the data were processed

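Total RNA of mouse bone marrow-derived macrophages, taken up in TRIzol per the labels, was sequenced in 8 libraries of 4 groups of 2. The authors deposited 1 table of FPKM values (reads scaled for gene length and for a factor of each library), which lists 54532 genes, their lengths and mm10 coordinates. Of what the authors did, the submitters' processing notes name mm10 and DESeq2. No aligner, counter, annotation version or strand setting is named (not given in the sources used here). In each library the product of FPKM and length fell on whole steps for 100% of values (tolerance 0.001). This gave rebuilt reads of 15753259 to 18058974 per library. A value of 0 allows up to 3 reads, for counting error only. The deposited values were not scaled to the total of rebuilt reads. Scaling to that total moved the median LPS change of all genes in WT from 0.04 to -0.46. How the authors scaled between libraries is not given.

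Genes with at least 1 FPKM in at least 2 libraries (11887) were tested on log2(FPKM + 1) with limma 3.58.1 in R 4.3.3 (trended prior, 1 model of all 8 libraries and 4 groups, 4 residual degrees of freedom). The pseudocount of 1 understates changes of low genes. There were 5 comparisons: LPS in each genotype, KO-labelled against WT cells without and with LPS, and the difference of the LPS changes. P-values were adjusted by the Benjamini-Hochberg method over all genes in each, and under 0.05 passed. Tables and figures were made with Python 3.11.15, pandas 2.3.3 and matplotlib 3.10.9. The model was also run on simulated data, in which far fewer genes changed with LPS than here. That run does not cover how the libraries were scaled.

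Values per library are given for every one of the 37 genes that passed in a comparison of genotypes or of LPS changes, and, in each role, for the gene with the largest LPS change in each genotype and the most abundant gene by the mean of all libraries. From each pathway list at most 2 rises and 2 falls per comparison are named, besides Prkag2, which is named because of the filter. The genes and lists were chosen with earlier results of these data known. The 19 alternatives were a pseudocount of 0.1 or 5, no filter, a minimum of 5 FPKM, scaling to TPM, to total reads or by quantiles, limma voom on rebuilt reads, no trend, only the libraries compared, a replicate block, and each library left out in turn. Near-identical transcripts (at least 95% over 300.0 bases) were sought in the reference transcripts. Of these, Atg4a shares 99.3% over 2115 bases with Atg4a-ps, which had 0 to 4 reads.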

Additional observations from a re-analysis of the deposited data

Results flagged for a closer look

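For 8 of the 37 genes the LPS change differed between KO-labelled and WT cells by a test of that difference itself (limma, adjusted over all genes). In log2 units of KO-labelled less WT cells the differences were 0.49 for Atg7, 0.46 for Ulk1, 0.33 for Sqstm1, -0.34 for Atg3, -0.41 for Uvrag, -0.43 for Optn, -0.44 for Atg16l1 and -0.56 for Tax1bp1. Over all genes 16.0% passed this test. With 2 libraries a group, Tax1bp1 was the one of the 8 that passed under all 3 scalings and without each library in turn. The KO-labelled libraries of this comparison still held Elf1 reads.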

How the results depend on the processing

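The 19 falls with LPS kept direction and call in both genotypes under TPM, total-read and quantile scaling. Across the single genes, comparisons and alternatives, 3229 values stayed on their side of the threshold, among them changes of sign where neither value passed, 124 lost the call and 60 gained it. The direction turned in 30 where at least 1 of the values passed. Under TPM these were Atg101 (-0.46 in WT, -0.31 in KO-labelled cells), Rb1cc1 (-0.30, -0.34), Becn1 (-0.19, -0.11), Atg4b (-0.33, -0.16), Gabarap (-0.38, -0.31), Gabarapl2 (-0.43 in KO-labelled cells) and Tfe3 (-0.14 in WT). Under total reads they were Atg101 (-0.45, -0.29), Rb1cc1 (-0.28, -0.30), Becn1 (-0.20, -0.11), Atg4b (-0.31, -0.14), Gabarap (-0.41, -0.30), Gabarapl2 (-0.41), Tfe3 (-0.16) and Atg13 between genotypes with LPS (0.16). Under quantile normalization they were Gabarap (-0.82, -0.71), Gabarapl2 (-0.22), Sqstm1 (-0.35 in WT) and Tfe3 (-0.05). Counts of the 37 also moved. The 13 rises in WT became 8 under TPM and total reads. With LPS the 12 differences between genotypes became 19 and 20 under TPM and total reads, the 6 higher ones 16 and 17, 10 by voom and 3 with only the libraries compared, and the 6 lower ones 3 and 3. Without LPS the 2 lower ones became 0 under TPM, without a trend and with only the libraries compared, 1 without a filter, under total reads, quantiles and a replicate block, and 4 by voom. For the difference of LPS changes the 3 higher became 5, 7 and 5 under TPM, total reads and voom, and the 5 lower 2, 2 and 3 under TPM, total reads and quantiles. The median of the 37 less that of all genes, -0.31 for LPS in WT, was -0.22 with a pseudocount of 5, -0.49 at a minimum of 5 FPKM (30 genes left), -0.36 under TPM, -0.38 under total reads, -0.37 under quantiles and -0.36 by voom, and in KO-labelled cells -0.24 became -0.16 and -0.36 with that pseudocount and minimum. In the 97 list genes the 5 differences without LPS became 3 without a filter, 8 at 5 FPKM, 2 under TPM, 17 by voom, 1 without a trend, 0 with only the libraries compared and 2 with a replicate block, and the 23 differing LPS changes became 14 without a filter. Leaving out each library gave 3 to 5 higher with LPS, 0 to 1 without LPS (all lower), and 3 to 7 differing LPS changes (0 to 3 higher, 1 to 5 lower), medians of -0.34 to -0.24 for LPS in WT and -0.09 to -0.04 without LPS, and 26 to 46, 0 to 6 and 8 to 27 list genes with LPS, without LPS and for the differing LPS changes. The cause was not tested. Differences between replicates 2 and 1 were near uncorrelated between groups (-0.077 to 0.0334). This cannot exclude that libraries of the same number share an animal, culture or batch, and the labels do not say. A replicate block ended 2 calls, Map1lc3b with LPS (limma adjusted p = 0.0612) and Sqstm1 without (0.0658). Atg10 had the fewest reads of the 37 genes, 29 to 92 per library.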
